A study of Danio rerio with 6 samples.

Results

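The genes of oxidative phosphorylation were examined in whole kidney marrow (WKM) of zebrafish, the tissue where adult fish make their blood. They were the rows of the gene count table whose name begins like that of a subunit of complexes I to V (nduf, sdh, uqcr, cox4 to cox8, atp5 and the mitochondrial mt-nd, mt-co, mt-cyb and mt-atp). The rule took 121 of 32057 rows, and these carry 116 different symbols when case is ignored. Of them 108 are nuclear and 13 are mitochondrially encoded, which is 1 row for each protein made from the mitochondrial genome. The nuclear rows comprise 38 of complex I, 5 of complex II, 8 of complex III, 25 of complex IV and 18 of complex V, with 12 assembly factors and 2 inhibitors of the ATP synthase that share the name stems.

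The tested fish were Tg(drl:hoxa9;hsp70:meis1), called Tg below, in which the draculin (drl) element drives hoxa9 in blood and the heat shock promoter hsp70 drives meis1. They were set against WT fish of the AB strain. Each of the 3 Tg and 3 WT samples pooled the cells of 3 kidneys, and p-values therefore measure the spread between pools. The labels and methods give an age of 5 months for both genotypes, whereas the text of the study's results gives 3 months. When adult fish of either genotype were heat shocked before this collection is not stated beside the RNA samples.

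Oxidative phosphorylation is the last stage of respiration, in the inner mitochondrial membrane. Complexes I and II pass electrons from NADH and succinate to ubiquinone, complex III passes them to cytochrome c, and complex IV passes them to oxygen. Complexes I, III and IV pump protons, and complex V, the ATP synthase, uses their return to make ATP. All but complex II hold subunits from both the nuclear and the mitochondrial genome. Red cells of fish keep their nucleus and mitochondria, unlike those of mammals, and mammalian blood stem cells are known for relying little on respiration.

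Total counts were 50767535 to 64055374 in Tg and 53620374 to 64888212 in WT. The rows that can hold transgene reads followed the labels. hoxa9a had 64.5, 78.1 and 101 CPM (counts relative to library size, scaled by TMM) in Tg, against 0, 0.143 and 0.96 in WT, and MEIS1 had 77.2, 56.1 and 52.5 CPM in Tg, against 21.4, 24.5 and 26.7 in WT. Genes of blood stem and progenitor cells summed to 939 to 1074 CPM in Tg and 507 to 588 CPM in WT. Of these, 4 of 12 rose at an edgeR FDR under 0.05, against 0.224% of all genes tested. The list holds MEIS1, and without that row the sums were 862 to 1022 CPM in Tg and 486 to 562 CPM in WT, with 3 of 11 called. A list of erythroid genes had overlapping sums, with 12240 to 30550 CPM in Tg and 16680 to 30780 in WT. Of 19 kidney tubule genes, which mark cells from outside the marrow, 18 had a negative log2 fold change. The edgeR test called 1 lower, against 0.373% of all genes tested. At an unadjusted p under 0.05, 10 were lower (52.6%, against 10.8% of all genes), and DESeq2 called 9 lower, against 6.33%. The sums of the tubule genes were 1213, 1543 and 1190 CPM in Tg, against 5043, 1650 and 1824 in WT, so WT pool 1 stood apart. That pool was the highest for every gene of the list except KCNJ1 and AQP8. KCNJ1 was lowest there, with 3.09 CPM, against 4.69 to 19.0 CPM in the other pools. AQP8 had 0 CPM in WT pools 1 and 2 and reached 1.14 CPM at most, in Tg pool 3. Immediate-early and heat shock genes, called stress genes below, summed to 1305 to 1767 CPM in Tg and 320 to 1222 CPM in WT. Their median log2 fold change was 0.71, and edgeR called 0 of the 12. At an unadjusted p under 0.05, 4 were higher (33.3%, against 9.07% of all genes) and 0 lower. DESeq2 called 3 higher, against 2.86%, and 0 lower. The part of handling or of heat shock in these levels was not tested. Lists of neutrophil, macrophage, lymphoid, thrombocyte, interrenal and dividing-cell genes had 0 genes called by edgeR, with median log2 fold changes of 0.45, -0.23, 0.23, 0.17, 0.48 and 0.21. The interrenal median rests on low counts: 7 of the 12 genes were tested. The 12 summed to 22.1, 2.51 and 1.89 CPM in Tg and 2.1, 11.0 and 5.36 CPM in WT. At an unadjusted p under 0.05, 8 of 16 dividing-cell genes were higher and 1 lower. So measured, 3 of 9 neutrophil, 3 of 12 lymphoid and 2 of 8 thrombocyte genes were higher, against 9.07% of all genes tested. Macrophage genes had 1 of 11 in each direction and interrenal genes 0 of 7. DESeq2 called 6 dividing-cell, 2 neutrophil, 1 macrophage, 1 lymphoid and 2 thrombocyte genes higher, against 2.86% of all genes. It called 1 dividing-cell and 1 macrophage gene lower.

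None of the 119 members tested passed the test of Tg against WT. With edgeR's quasi-likelihood test at an FDR under 0.05, 0 members were called higher and 0 lower, while 0.224% of the 20123 genes tested were called higher and 0.373% lower. At an unadjusted p under 0.05, 1 member was higher in Tg (COX7A2L) and 5 were lower (NDUFA10, COX4I2, cox7a1, ndufa4b and COX5A), against 9.07% and 10.8% of all genes. DESeq2 called 0 members higher and 3 lower (NDUFA10, COX4I2 and cox7a1), against 2.86% and 6.33% of all genes, and limma-voom called 0 in either direction. The 3 Tg pools lay above the 3 WT pools for 4 members and below them for 11, against 14.0% and 14.1% of all genes. The members' shares of 3.36% and 9.24% were below that background. The 2 members left untested were a second SDHD row with few counts and ndufa4l2b, which had no count in any pool.

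The absence of calls was accompanied by narrow intervals. The 95% interval of the fold change lay inside 2-fold in both directions for 107 of the 119 members, against 43.7% of all genes tested. The median standard error of the log2 fold change was 0.14 for members and 0.31 for all genes, and the median count level was 60.7 and 10.2 CPM. The point estimate was within 1.25-fold for 103 members, which is 86.6% of them, against 45.2% of all genes. The median log2 fold change was -0.08 for members and 0.01 for all genes. In bulk samples, fewer cells of a type and less RNA per cell cannot be told apart.

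**Figure D1:**
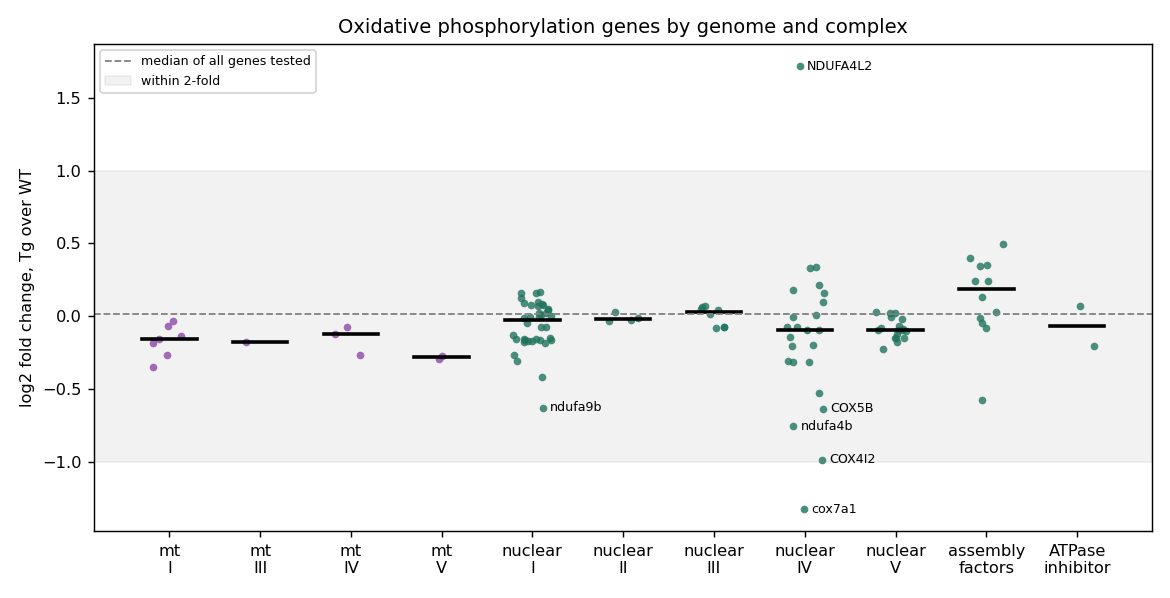
Log2 fold change of Tg over WT (vertical axis) for each tested member, by genome and complex, each point a gene and each bar the median of its group; the gray band marks 2-fold and the dashed line the median of all genes. The nuclear genes of complexes II, III and V are tight around 0, nuclear complex IV spans -1.33 to 1.72, and all 13 mitochondrially encoded genes are below 0.

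The 13 mitochondrially encoded genes all had lower mean levels in Tg than in WT, by small amounts. Their log2 fold changes ran from -0.35 (MT-ND5) to -0.04 (MT-ND4) with a median of -0.18, none passed the edgeR or DESeq2 test, and all 13 intervals lay inside 2-fold. The pools of the genotypes overlapped for every one of the 13. Summed, they reached 45790, 51000 and 50450 CPM in Tg, against 62610, 45710 and 60150 CPM in WT. WT pool 2 was thus as low as the Tg pools, and the WT pools differed more among themselves than the Tg pools did. As a share of all counts, mitochondrial transcripts took 4.81, 4.79 and 4.72% in Tg and 6.44, 4.74 and 6.08% in WT. The ratio of mean sums, Tg over WT, was 0.874. Without WT pool 1 it was 0.927, the median log2 fold change was -0.01, and 6 genes turned positive (MT-ND1, MT-ND2, MT-ND3, MT-ND4, mt-nd4l and MT-CO3).

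MT-CO1, the catalytic core subunit of complex IV, had 18010, 18680 and 17890 CPM in Tg, against 22090, 17800 and 25810 CPM in WT (log2 fold change -0.27, SE 0.21, edgeR adjusted p = 0.53). Its Tg pools were all below WT pools 1 and 3 and close to WT pool 2. MT-CYB, the mitochondrially encoded subunit of complex III, had 5370, 5681 and 5469 CPM in Tg and 7031, 5006 and 6630 CPM in WT, with WT pool 2 below every Tg pool. The genes of complex I put WT pool 1 alone on top. MT-ND5, a proton-pumping subunit, had 2278, 2611 and 2749 CPM in Tg, against 4208, 2435 and 3064 in WT (log2 fold change -0.35, SE 0.22, edgeR adjusted p = 0.43), and the other 6 complex I genes had fold changes of -0.27 (MT-ND6) to -0.04 (MT-ND4). MT-CO2 and MT-CO3, the other core subunits of complex IV, had log2 fold changes of -0.12 and -0.08.

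The make-up of the mitochondrial counts overlapped between genotypes. MT-CO1 took 39.3, 36.6 and 35.5% of them in Tg, against 35.3, 39.0 and 42.9% in WT, and MT-CYB took 10.8 to 11.7% in Tg and 11.0 to 11.2% in WT. MT-ND1, MT-ND2 and MT-ND3 took 4.17 to 4.74%, 3.61 to 4.16% and 0.600 to 0.747% in Tg, against 3.76 to 5.05%, 3.20 to 4.24% and 0.550 to 0.730% in WT. Neighbouring genes that share sequence limit single rows. mt-atp8 overlaps MT-ATP6, both subunits of the ATP synthase, and carried 7.22 to 7.70 counts per MT-ATP6 count in Tg and 7.36 to 7.80 in WT. mt-nd4l overlaps MT-ND4, which had 4.16 to 4.25 counts per mt-nd4l count in Tg and 4.04 to 4.23 in WT. MT-ND6 is read from the other strand than its neighbours, and no source states whether strand was used in the counting. The division of counts within these overlaps is therefore uncertain, although the ratios barely differed between pools.

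**Figure D2:**
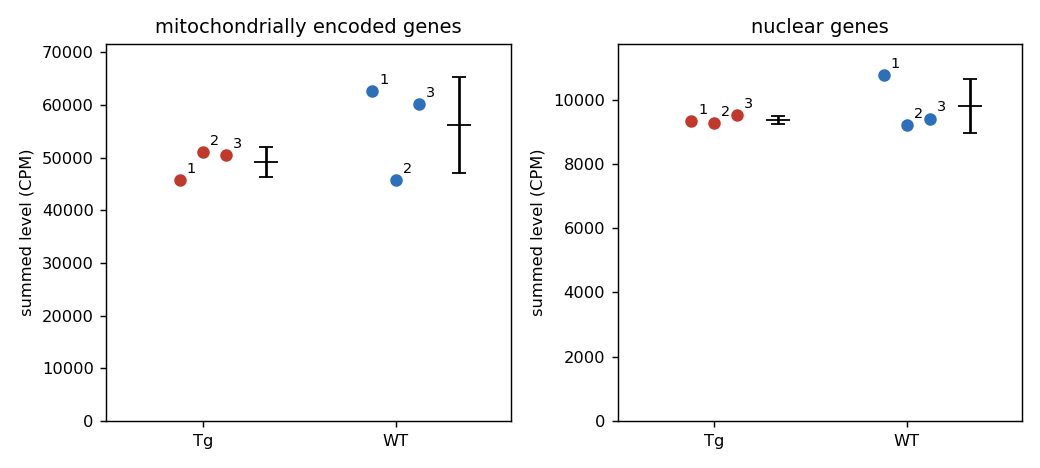
Summed CPM (vertical axis, from 0) of the mitochondrially encoded members (left) and the nuclear members (right) in each pool of Tg and WT; digits name the pool, and the mark with bars is the mean ± SD of 3 pools. WT pool 1 is highest in both panels, and WT pool 2 is just below the lowest Tg pool in both.

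Nuclear members were close to level between genotypes. Their summed level was 9330, 9287 and 9516 CPM in Tg, against 10780, 9220 and 9417 CPM in WT, a ratio of 0.956. WT pool 1 exceeded every other pool, whereas WT pools 2 and 3 lay among or just below the Tg pools. Of the 106 tested, 42 had a positive and 64 a negative log2 fold change, with a median of -0.05. Without WT pool 1 the ratio was 1.01 and the median 0.03.

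WT pool 1 had the highest value of the 6 pools for 69 of the 119 members, or 58.0%, against 18.3% of all genes tested. Among the mitochondrially encoded genes this held for 12 of 13, with MT-CO1 highest in WT pool 3. It held for 19 of 38 genes of complex I, 6 of 8 of complex III, 14 of 24 of complex IV and 11 of 18 of complex V. It held for 3 of 12 assembly factors. Without this pool the median log2 fold change of the nuclear genes was 0.02 in complex I, 0.07 in complex II, 0.13 in complex III and 0.01 in complex IV. The same pool had the highest sum of tubule genes. The part of tubule cells in these levels was not tested.

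Complex I, the NADH dehydrogenase, had 22 negative and 16 positive log2 fold changes among its 38 nuclear genes, from -0.63 to 0.16, with a median of -0.03. Its core redox subunits stayed near level: NDUFV1, which binds NADH, had 139 to 146 CPM in Tg and 144 to 153 CPM in WT, and NDUFS1, an iron-sulfur subunit, had 164 to 177 CPM in Tg and 149 to 196 CPM in WT. NDUFA10 (ENSDARG00000013333), an accessory subunit, stood out. It had 78.4, 72.8 and 77.2 CPM in Tg, against 108, 93.7 and 103 CPM in WT. Every Tg pool was below every WT pool. The log2 fold change was -0.42 with an SE of 0.11, which missed the edgeR threshold (adjusted p = 0.116) and passed that of DESeq2 (adjusted p = 0.0192).

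NDUFA10 was little affected by WT pool 1, since its log2 fold change without that pool was -0.37. ndufa9b, a duplicate of the accessory subunit gene NDUFA9, had 3.24, 2.63 and 2.47 CPM in Tg and 4.59, 3.66 and 4.65 CPM in WT (log2 fold change -0.63, SE 0.32, edgeR adjusted p = 0.32). The groups did not overlap, but the interval ran from -1.37 to 0.11. Its partner NDUFA9 overlapped between genotypes at -0.13. NDUFB6, the next by p, had a log2 fold change of -0.26.

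Complexes II and III had mean levels that were close between genotypes. Of complex II, the succinate dehydrogenase, 4 rows were tested and their log2 fold changes ran from -0.04 to 0.03. SDHA, the flavoprotein that oxidises succinate, had 214, 202 and 177 CPM in Tg, against 235, 195 and 178 CPM in WT, and SDHB, the iron-sulfur subunit, had 85.1, 84.4 and 79.2 CPM in Tg, against 87.4, 74.3 and 91.7 CPM in WT. For both, as for the membrane anchor SDHC, the pools were interleaved. The 8 nuclear genes of complex III ran from -0.08 to 0.07, and all 8 intervals were inside 2-fold. UQCRB, UQCRQ and uqcrc2a, those with the smallest p, had -0.08, -0.08 and -0.08. UQCRFS1, the Rieske iron-sulfur protein, had 170, 151 and 160 CPM in Tg and 190, 148 and 124 CPM in WT. Without WT pool 1, 6 of the 8 genes of complex III were positive, with a median of 0.13 and UQCRFS1 at 0.24.

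Complex IV, cytochrome c oxidase, was the most uneven of the 5 complexes, though less so than all genes tested. Its 24 tested nuclear genes had log2 fold changes from -1.33 to 1.72 with an SD of 0.56. The SD was 0.17 in complex I, 0.07 in complexes III and V, and 1.15 over all genes tested. Of the 24 intervals 17 lay inside 2-fold (70.8%, against 43.7% of all genes). The extreme at 1.72, NDUFA4L2, rests on 64 counts over all pools and has an SE of 1.50. Of the 8 members with an absolute log2 fold change above 0.5, 6 belong to complex IV, and several of these are the duplicate or alternative form of a subunit. Besides NDUFA4L2, the 6 include a COX5B row that rests on 158 counts (ENSDARG00000113254). Another of them, COX5B ENSDARG00000068738, had a log2 fold change of 0.06 without WT pool 1.

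COX4I2 (ENSDARG00000022509) encodes the alternative form of the regulatory subunit COX4, which in mammals is known from lung and from low oxygen. It had 6.28, 9.50 and 10.8 CPM in Tg, against 15.0, 17.0 and 20.6 CPM in WT. All 3 Tg pools were below all 3 WT pools. The log2 fold change was -0.99 (SE 0.25, 95% interval -1.58 to -0.39), which missed the edgeR threshold at an adjusted p of 0.114, was called by DESeq2 at 0.00862, and was -1.09 without WT pool 1. The common form, COX4I1, had 240, 274 and 258 CPM in Tg and 296, 255 and 273 CPM in WT, overlapping at a log2 fold change of -0.09. For every 100 counts of COX4I1 there were 2.62, 3.47 and 4.16 counts of COX4I2 in Tg, against 5.05, 6.66 and 7.56 in WT. Another row, cox4i1l, gave 14.1, 12.2 and 18.5 CPM in Tg and 36.4, 8.34 and 10.7 CPM in WT, so its log2 fold change of -0.31 came from WT pool 1 and was 0.65 without it.

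cox7a1 (ENSDARG00000069464) is named for the form of subunit COX7A that is known from heart and skeletal muscle in mammals. It had 4.63, 5.25 and 8.09 CPM in Tg, against 20.2, 9.68 and 15.2 CPM in WT. The groups did not overlap, although Tg pool 3 and WT pool 2 were near each other. The log2 fold change was -1.33 (SE 0.34, 95% interval -2.14 to -0.51). The edgeR adjusted p was 0.116 and the DESeq2 adjusted p 0.00691, and without WT pool 1 the log2 fold change was -1.06. cox7a1 made up 5.70, 6.25 and 8.98% of the counts of the 3 COX7A rows in Tg, against 17.8, 11.2 and 18.1% in WT. The 2 rows of the widely used form, both named COX7A2, had log2 fold changes of -0.32 and 0.16, neither called.

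ndufa4b (ENSDARG00000056108) is a duplicate of NDUFA4, a subunit once assigned to complex I and now to complex IV. It had 20.0, 20.1 and 15.0 CPM in Tg, against 42.4, 27.2 and 23.3 CPM in WT. Every Tg pool was below every WT pool, with WT pool 1 well above the other WT pools. The log2 fold change was -0.76 (SE 0.25, edgeR adjusted p = 0.174) and -0.46 without WT pool 1. ndufa4b took 10.3, 8.03 and 6.83% of the NDUFA4 counts in Tg, against 16.0, 12.5 and 9.30% in WT. These shares overlapped, with Tg pool 1 above WT pool 3. NDUFA4 itself overlapped at -0.08. For COX4I2, cox7a1 and ndufa4b alike, the tubule genes were lower in the same Tg pools, and their part in these levels was not tested.

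**Figure D3:**
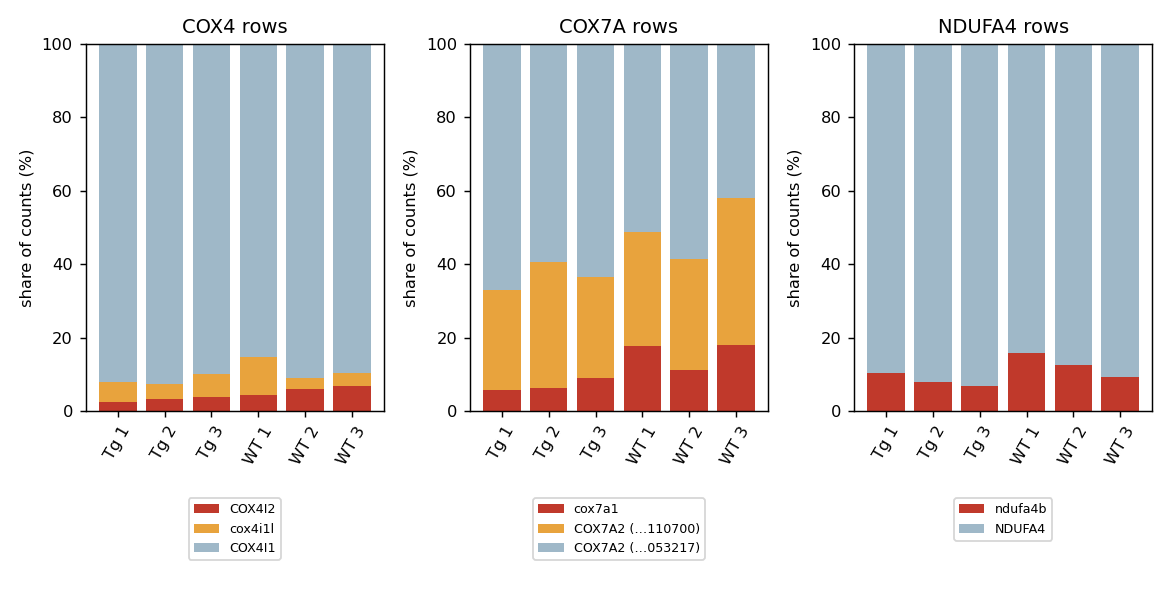
Share of counts (%, vertical axis) that each row takes of all rows of its subunit, COX4 (left), COX7A (centre) and NDUFA4 (right), in each pool, with Tg pools left of WT pools. The red segments are COX4I2 (2.41 to 3.74% in Tg, 4.31 to 6.78% in WT), cox7a1 (5.70 to 8.98%, 11.2 to 18.1%) and ndufa4b (6.83 to 10.3%, 9.30 to 16.0%). Only the ndufa4b shares overlap between genotypes. Shares of counts are not corrected for transcript length.

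Other duplicates were mixed, and COX5A shared the pattern of a lower lesser row beside a level partner. COX5A, a nuclear subunit that faces the matrix, had 44.7, 49.8 and 41.6 CPM in Tg, against 60.4, 56.3 and 52.2 CPM in WT (log2 fold change -0.31, SE 0.13, edgeR adjusted p = 0.237), without overlap. Its duplicate cox5aa was level, with 183, 186 and 189 CPM in Tg and 196, 186 and 177 CPM in WT. Of the 3 rows named COX5B, ENSDARG00000015978 lay lower in all Tg pools, with 128 to 138 CPM in Tg and 140 to 165 CPM in WT (log2 fold change -0.20). ENSDARG00000068738 had 18.4, 24.9 and 23.3 CPM in Tg and 61.0, 17.9 and 24.7 CPM in WT, so it was high in WT pool 1 alone. Rows that share a name may share reads, and their counts one by one are uncertain.

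COX7A2L (ENSDARG00000054907), which in mammals helps to join complexes III and IV into supercomplexes, went the other way. It had 68.2, 65.1 and 70.7 CPM in Tg, against 60.7, 45.4 and 55.0 CPM in WT, and every Tg pool was above every WT pool. The log2 fold change was 0.34 (SE 0.14), with an edgeR adjusted p of 0.237 and a DESeq2 adjusted p of 0.268. cox6a1 also lay higher in all Tg pools, with 109 to 130 CPM in Tg and 103 to 105 CPM in WT, and a log2 fold change of 0.18. The other row of that subunit, COX6A1 (ENSDARG00000054588), was more scattered, with 87.0, 140 and 165 CPM in Tg and 125, 83.1 and 103 CPM in WT, overlapping at 0.33. The rows of COX6B, COX6C, COX7B, COX7C and COX8 had fold changes within 1.25-fold, although cox6b1 had a log2 fold change of 0.64 without WT pool 1.

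**Figure D4:**
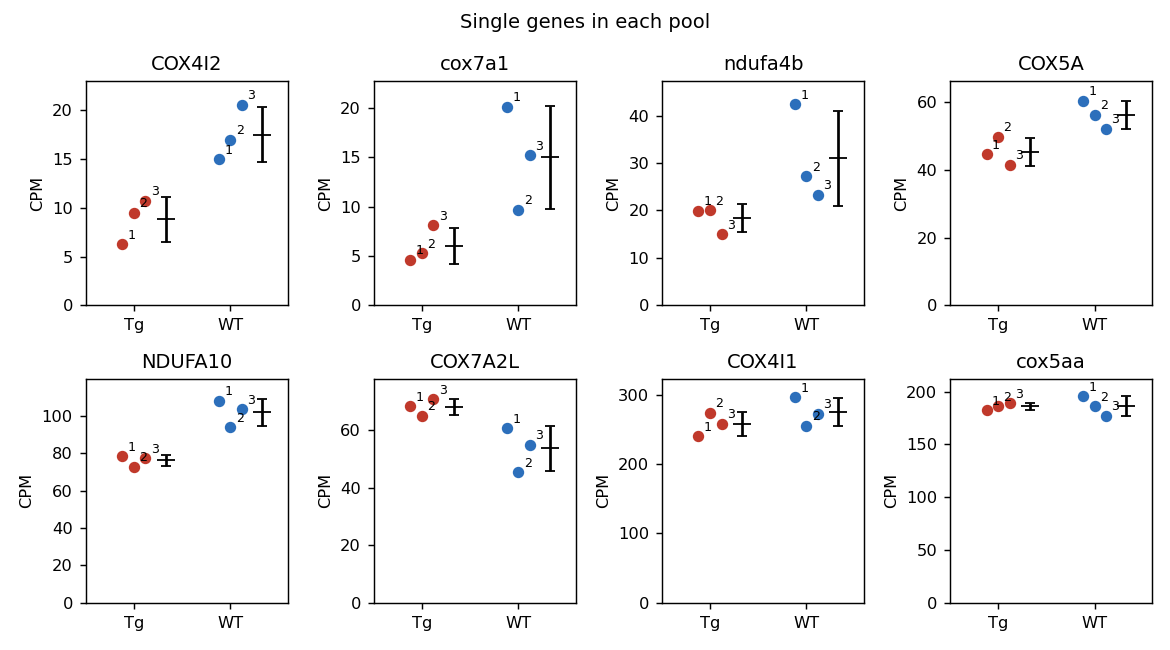
CPM (vertical axis, from 0) of 8 members in each pool, Tg left and WT right, with digits naming the pools and marks showing the mean ± SD of 3 pools. COX4I2, cox7a1, ndufa4b, COX5A and NDUFA10 lie lower in all Tg pools and COX7A2L higher, while COX4I1 and cox5aa overlap.

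Complex V, the ATP synthase, had small differences. Of its 18 nuclear genes 15 had a negative log2 fold change, from -0.22 to 0.03, with a median of -0.09, and all 18 intervals lay inside 2-fold. Without WT pool 1, 11 of the 18 were negative and the median was -0.04. ATP5F1B, the catalytic beta subunit, had 1165, 1044 and 1110 CPM in Tg, against 1318, 1231 and 1129 CPM in WT (log2 fold change -0.15, SE 0.12, edgeR adjusted p = 0.533). Pool 1 of Tg exceeded pool 3 of WT, so the groups overlapped. ATP5F1A, the alpha subunit, had 907, 778 and 874 CPM in Tg and 1043, 876 and 863 CPM in WT. atp5f1e and ATP5PF, the members with the smallest p, had log2 fold changes of -0.22 and -0.15. The rows of the c-ring subunit, atp5mc1, ATP5MC3 and atp5mc3b, had 0.02, 0.02 and -0.08. The sole member of the complex whose pools did not overlap was atp5meb, with 75.5 to 79.9 CPM in Tg and 80.8 to 87.5 CPM in WT.

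Of the 2 inhibitors of the ATP synthase, atp5if1a had a log2 fold change of -0.21 and atp5if1b one of 0.07. atp5if1a had 58.9, 51.1 and 58.3 CPM in Tg, against 73.4, 61.3 and 59.5 CPM in WT, with no overlap but with WT pool 3 next to Tg.

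Of the 12 assembly factors 8 had a positive log2 fold change, with a median of 0.19, against 10248 positive of the 20123 genes tested. Of the 12 intervals 8 lay inside 2-fold (66.7%, against 43.7% of all genes), and the median SE was 0.26, against 0.31. NDUFAF6, needed for complex I assembly in humans, had 10.5, 7.94 and 8.30 CPM in Tg, against 6.37, 6.33 and 6.25 CPM in WT (log2 fold change 0.50, SE 0.22, edgeR adjusted p = 0.269). NDUFAF8 had 3.77 to 3.86 CPM in Tg and 2.47 to 3.39 CPM in WT, and SDHAF4, an assembly factor of complex II, had a log2 fold change of 0.40. NDUFAF7, a methyltransferase that acts on complex I in humans, was lower, with 4.30 to 6.69 CPM in Tg and 7.09 to 9.08 CPM in WT. None of the 12 was called.

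In 7 lists of genes around the respiratory chain, 0 members were called by edgeR in either direction. Of the 12 electron carriers and ubiquinone-linked dehydrogenases tested, 1 was higher (8.33%) and 3 lower (25%) at an unadjusted p under 0.05. Over all genes tested the shares were 9.07% and 10.8%. DESeq2 called 2 of the 12 lower, against 6.33% of all genes. The list's median log2 fold change was -0.04. ETFDH, which feeds electrons from fat oxidation to ubiquinone, had 33.9, 35.7 and 34.3 CPM in Tg, against 49.4, 57.1 and 47.8 CPM in WT (log2 fold change -0.57, SE 0.12, edgeR adjusted p = 0.0885, DESeq2 adjusted p = 0.00305). CHDH, the choline dehydrogenase, averaged 1.39 ± 0.35 CPM in Tg and 3.64 ± 0.73 CPM in WT (SD, n = 3 each). cycsb, a cytochrome c, was higher, with 306, 239 and 272 CPM in Tg and 228, 176 and 125 CPM in WT (log2 fold change 0.63, edgeR adjusted p = 0.189). DHODH, the pyrimidine synthesis enzyme that reduces ubiquinone and whose inhibitor was used in the study's embryos, had 17.0, 15.3 and 13.1 CPM in Tg and 16.5, 14.8 and 15.0 CPM in WT, overlapping at -0.03.

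Of 12 ubiquinone synthesis genes, 0 were higher and 3 lower (25%) at an unadjusted p under 0.05 (median -0.13). Over all genes tested 9.07% were higher and 10.8% lower by that measure, and DESeq2 called 6.33% lower. DESeq2 called 1 of the 12 lower. COQ9 had 20.0 to 27.7 CPM in Tg and 32.8 to 41.8 CPM in WT, and COQ8A had 61.9 to 76.8 CPM in Tg and 78.1 to 108 CPM in WT. Of 22 genes of the tricarboxylic acid cycle and pyruvate entry, 1 was higher (4.55%) and 2 were lower (9.09%) by unadjusted p. Their median was 0.01, and DESeq2 called 1 lower. FH, the fumarase, had 65.0 to 75.6 CPM in Tg and 88.5 to 109 CPM in WT, and PC, the pyruvate carboxylase, had 115 to 137 CPM in Tg and 83.4 to 104 CPM in WT. Carriers and uncouplers, 13 tested, had 1 higher (7.69%) and 4 lower (30.8%) and a median of -0.31. DESeq2 called those 4 lower. ucp3, an uncoupling protein, had 5.07 to 9.15 CPM in Tg and 15.3 to 31.1 CPM in WT, and CKMT1B, a mitochondrial creatine kinase, had 4.49 to 5.73 CPM in Tg and 9.05 to 17.2 CPM in WT. The tubule genes were lower in Tg pools too, and their part in these values was not tested.

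Genes that express the mitochondrial genome and assembly factors outside the naming rule had mostly positive fold changes in Tg. None of them passed the edgeR test. Over all genes, 10248 of the 20123 tested by edgeR had a positive fold change, and DESeq2 called 2.86% higher and 6.33% lower. Among 22 genes that express the mitochondrial genome 17 were positive, with a median of 0.25. At an unadjusted p under 0.05, 2 were higher (9.09%, against 9.07% of all genes) and 0 lower, with 1 called higher by DESeq2. Summed, they had 830, 675.6 and 814.5 CPM in Tg, against 664.2, 643.2 and 517.8 CPM in WT, with WT pool 3 lowest. MRPL12, of the mitochondrial ribosome, had 66.5, 58.1 and 62.5 CPM in Tg, against 48.1, 38.1 and 38.3 CPM in WT (log2 fold change 0.59, SE 0.14, edgeR adjusted p = 0.102), and GFM1, a translation elongation factor, had 64.2 to 81.6 CPM in Tg and 32.1 to 58.3 CPM in WT. Of 33 assembly factors outside the naming rule 24 were positive, with a median of 0.10, and 4 were higher (12.1%, against 9.07% of all genes) and 1 lower (3.03%, against 10.8%) by the same measure, with 1 called lower by DESeq2. ECSIT, of complex I assembly, had 17.7 to 20.4 CPM in Tg and 10.5 to 13.3 CPM in WT. ACAD9, of the same step, had 17.5 to 22.8 CPM in Tg and 30.1 to 32.9 CPM in WT. The summed progenitor and stress genes given above were also higher in Tg, and their part in these values was not tested.

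Of 20 regulators of mitochondrial biogenesis, 11 had a positive and 9 a negative log2 fold change, with a median of 0.11. At an unadjusted p under 0.05, 2 were higher (10%) and 4 lower (20%). Over all genes tested the shares were 9.07% and 10.8%. DESeq2 called 1 of the 20 higher and 2 lower, against 2.86% and 6.33% of all genes. hif1aa, a duplicate of the gene for the oxygen-sensitive factor HIF1A, had 9.70, 10.4 and 12.4 CPM in Tg, against 2.16, 2.69 and 4.77 CPM in WT (log2 fold change 1.76, SE 0.35, edgeR adjusted p = 0.0794, DESeq2 adjusted p = 1.97e-04). The row named HIF1A was far more abundant, with 336.7, 377.5 and 356.4 CPM in Tg and 329.3, 302 and 261.8 CPM in WT. Its log2 fold change was 0.26 (SE 0.12, edgeR adjusted p = 0.2865, DESeq2 adjusted p = 0.3675). PPARGC1A, a coactivator of mitochondrial genes, had 3.47, 2.24 and 2.42 CPM in Tg and 8.31, 5.15 and 7.25 CPM in WT (log2 fold change -1.35, SE 0.33, edgeR adjusted p = 0.108, DESeq2 adjusted p = 0.00629). For hif1aa, HIF1A and PPARGC1A no Tg pool overlapped a WT pool. The tubule genes, with a median log2 fold change of -1.14, were lower in the same Tg pools as PPARGC1A, and their part in its level was not tested.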

How the data were processed

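Poly(A) RNA of 6 pools was sequenced as paired ends. Per the labels, the authors used Cutadapt 1.9, HISAT2 2.0.4 on GRCz11 and StringTie 1.3.4d. The deposited values are raw gene counts, not normalized. No source used here states how they were made, so the sharing of reads between near-identical or overlapping genes is unknown.

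Symbols came from a name table that names 28988 of 32057 rows. In R 4.3.3, filterByExpr of edgeR 4.0.16 left 20123 genes. After TMM scaling, Tg was tested against WT by the quasi-likelihood test, and p-values were adjusted by the Benjamini-Hochberg method over the whole table of tested genes. An interval is the log2 fold change with its standard error at 95%. DESeq2 1.42.0 and limma-voom 3.58.1 were alternatives. The script was tested on 1 simulated data set in which a small part of the genes, drawn from all those tested, was changed. There edgeR recovered 5% of the 2-fold and 39% of the 4-fold changes, with 7 false calls among 51. DESeq2 recovered 29% and 69%, with 83 false calls among 181, so its adjusted p understated the false calls there. Its calls here are therefore read with caution. That false share need not hold here, where DESeq2 called 639 genes higher and 1414 lower. limma-voom recovered 6% and 39%, with 2 false calls among 47. Recovery was not measured for the members alone. Named genes were every mitochondrially encoded member, the 3 smallest p in each nuclear complex, isoform pairs and the 2 smallest p in each list. Other genes, such as the assembly factors, cycsb, HIF1A and DHODH, were named after their values were seen. The members and lists were chosen with earlier results of these data known.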

Additional observations from a re-analysis of the deposited data

How the results depend on the processing

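Depth of 50767535 counts or more did not limit the abundant members, while NDUFA4L2 and the lesser COX5B row rested on few counts. With DESeq2, limma-voom and the replicate number as a block, the genes called higher numbered 639, 25 and 0, and those called lower 1414, 25 and 1. Leaving out 1 pool at a time gave 0 to 28 higher and 0 to 60 lower, with at most 2 in either direction without Tg pool 2, Tg pool 3, WT pool 2 or WT pool 3, and 0 members called in each of these fits. DESeq2 called 3 members lower. Same-numbered pools correlated at -0.09, -0.14 and 0.13 over all genes in their deviations from the group means, and at -0.169, 0.145 and 0.256 over members. Erythroid sums rose from pool 1 to pool 3 in both genotypes (12240, 23170 and 30550 CPM in Tg, 16680, 20940 and 30780 in WT). Tubule sums did not share an order between genotypes. Whether same-numbered pools were handled together is not stated, so pairing remains uncertain. The block called 0 members.

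The sign of cox4i1l turned with limma-voom (0.0303) and with the block (0.0127), that of ATP5MC3 (-0.0523) and SDHC (-0.0444) when libraries were scaled by total count alone, and that of atp5mc1 with that scaling (-0.0533), RLE size factors (-0.00354) and DESeq2 (-0.00353). The cause was not tested.

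Leaving out 1 pool at a time turned the sign of 20 genes, whose log2 fold changes ran from -0.166 to 0.0225 (UQCRB), -0.656 to 0.649 (cox4i1l), -0.144 to 0.0817 (SDHA), -0.0682 to 0.0822 (ATP5MC3), -0.0722 to 0.212 (SDHC), -0.00518 to 0.641 (cox6b1), -0.039 to 0.322 (COX7A2, ENSDARG00000053217), -0.0805 to 0.176 (atp5mc1), -0.323 to 0.0332 (MT-ND1), -0.274 to 0.0368 (MT-ND2), -0.168 to 0.0332 (MT-CO3), -0.248 to 0.0522 (MT-ND3), -0.139 to 0.0207 (mt-nd4l), -0.116 to 0.0758 (MT-ND4), -0.95 to 0.0589 (COX5B, ENSDARG00000068738), -0.112 to 0.0139 (SDHB), -0.0601 to 0.0322 (cox5aa), -0.422 to 0.0969 (cox8b), -0.177 to 0.0226 (NDUFA4) and -2.02 to 0.0602 (COX5B, ENSDARG00000113254). The other 43 genes followed kept their sign under every alternative run, among them COX4I2, cox7a1, ndufa4b, NDUFA10 and COX7A2L.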
